A study of Mus musculus with 3 samples.

Results

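The 39 Hox genes of the mouse, in their 4 clusters, were examined for 5-methylcytosine (5mC) in isolated cardiomyocytes. They are the protein-coding genes of the RefSeq annotation of GRCm38 (mm10) named Hoxa, Hoxb, Hoxc or Hoxd plus a number, out of 21900 protein-coding genes. Each cluster was taken from the start of the first to the end of the last Hox gene, with 100 kb on either side as flanks. These 4 windows held 85 of 162107 TAC peaks and 72 of 135886 Sham peaks. The TAC library came from cardiomyocytes after pressure overload (1 week, per the series title), and the Sham library from cardiomyocytes of sham-operated mice. Both came from male C57Bl6/J mice aged 8 weeks, without any transgene or other allele given in the labels. DNA fragments carrying 5mC were enriched with an antibody and sequenced (MeDIP-seq), with 1 library per group, and an Input library without antibody served the authors' peak calling. The sources used here do not give whether a library pooled several animals, or how cardiomyocytes were purified.

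Hox genes encode homeodomain transcription factors that give cells their position along the body axis. Their order along a cluster follows the order of their expression domains, from the low-numbered genes used in the hindbrain, pharyngeal region and heart progenitors to the high-numbered genes used in the posterior trunk, limbs and urogenital tract. In cells that do not use them, the clusters are typically covered by Polycomb proteins and their histone mark, and their CpG islands, stretches rich in CG where 5mC can be placed, are mostly free of methylation. Cofactors of the Pbx, Meis and Pknox families bind DNA together with Hox proteins.

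Since each group has a single library, TAC and Sham could not be tested against each other, and all intervals are exact 95% intervals that cover counting error only. The libraries had 14658177 tags (TAC) and 12585289 tags (Sham), per the file headers. A peak marks enrichment over input, not a methylation level, and fewer methylated cells and less methylation per cell cannot be told apart. Every peak carries the same score, so strength is given here only as row fraction, the row of a peak divided by the number of rows of its list, where 0 is the start. The rows run through 414 position-sorted blocks in TAC and 352 in Sham, an order read here as falling strength, although the sources used here do not state its meaning. Peaks do not measure expression, so the label cardiomyocyte could not be checked against marker expression. Marker genes of cardiomyocytes held 58 TAC and 36 Sham peaks over 8 genes, those of fibroblasts 14 and 9 over 8, of endothelium 51 and 57 over 8, of smooth muscle 14 and 11 over 4, and of immune cells 27 and 17 over 5. These lists were not matched for gene length, so their totals do not compare cell types. Ryr2 alone, a gene of 554 kb, held 31 of the TAC and 20 of the Sham peaks of the cardiomyocyte list. The part of other cell types in the results below was not tested.

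Promoter sequences show what lay under the peaks. Of 24 RefSeq promoters (GRCm38.p6, 250 bases before to 50 after the start of transcription) matched to 22 of the 39 Hox genes, 1 was overlapped by a TAC peak and 1 by a Sham peak. They are printed 5' to 3' with each CG in capitals, beside the promoter of Hoxa13, which held the most CG of those without a peak.
Hoxd3: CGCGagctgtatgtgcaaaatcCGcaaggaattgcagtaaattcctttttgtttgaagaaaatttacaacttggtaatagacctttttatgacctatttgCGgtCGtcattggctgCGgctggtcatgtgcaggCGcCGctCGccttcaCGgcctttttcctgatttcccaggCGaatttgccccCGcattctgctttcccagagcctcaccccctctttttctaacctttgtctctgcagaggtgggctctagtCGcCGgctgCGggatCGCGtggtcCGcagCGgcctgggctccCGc
Hoxa9: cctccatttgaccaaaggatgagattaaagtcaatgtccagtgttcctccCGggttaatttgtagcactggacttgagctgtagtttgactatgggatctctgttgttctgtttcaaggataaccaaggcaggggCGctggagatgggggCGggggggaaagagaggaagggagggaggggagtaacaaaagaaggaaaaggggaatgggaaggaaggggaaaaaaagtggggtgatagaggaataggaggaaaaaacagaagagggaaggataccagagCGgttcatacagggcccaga
Hoxa13: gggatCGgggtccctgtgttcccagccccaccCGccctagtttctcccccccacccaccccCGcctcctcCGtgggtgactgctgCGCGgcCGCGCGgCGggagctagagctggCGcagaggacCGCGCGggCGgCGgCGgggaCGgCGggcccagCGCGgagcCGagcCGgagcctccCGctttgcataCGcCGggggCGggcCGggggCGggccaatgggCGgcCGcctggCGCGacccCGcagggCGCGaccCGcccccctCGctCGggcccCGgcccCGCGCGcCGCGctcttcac

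The Hoxd3 promoter (chr2:74711743-74712042, plus strand) holds 20 CG, and 26.5% of all promoters hold at least as many. Its first 185 bases, with 11 of the CG, lay under a TAC peak (74711427 to 74711927, row fraction 0.764), while the nearest Sham peak was 6.08 kb away. Hoxd3 is a gene of the cervical vertebrae. The Hoxa9 promoter (chr6:52227321-52227620, minus strand) holds 4 CG, and 68.6% of all promoters hold at least as many. It lay entirely under a Sham peak (52227262 to 52227762, row fraction 0.917), and the nearest TAC peak was 1.62 kb away. Hoxa9 is known from blood stem cells and leukaemia. The Hoxa13 promoter (chr6:52260831-52261130, minus strand) holds 45 CG, which 1.93% of all promoters reach, and its nearest peak was 20.2 kb away in TAC and 20.02 kb away in Sham. Hoxa13 is needed for digits and the urogenital tract.

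Hox promoters were richer in CG than promoters at large, with a median of 14.5 CG per promoter against 7 over all 32851 promoters. The motif CG reads the same on both strands, so each site was counted once. Of all promoters, 4.86% were overlapped by a TAC peak and 4.89% by a Sham peak, and 1 of 24 in each library is close to that share. Among promoters with 20 or more CG the shares over the genome were 1.93% in TAC and 1.46% in Sham, and of the 11 Hox promoters in that class Hoxd3 alone was overlapped, in TAC alone. Of the 7 Hox promoters with at most 9 CG, Hoxa9 was the overlapped one, in Sham alone. Promoters that hold many CG, such as those of Hoxd13 (37 CG), Hoxd1 (29) and Hoxa5 (29), were without a peak in both libraries.

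**Figure D1:**
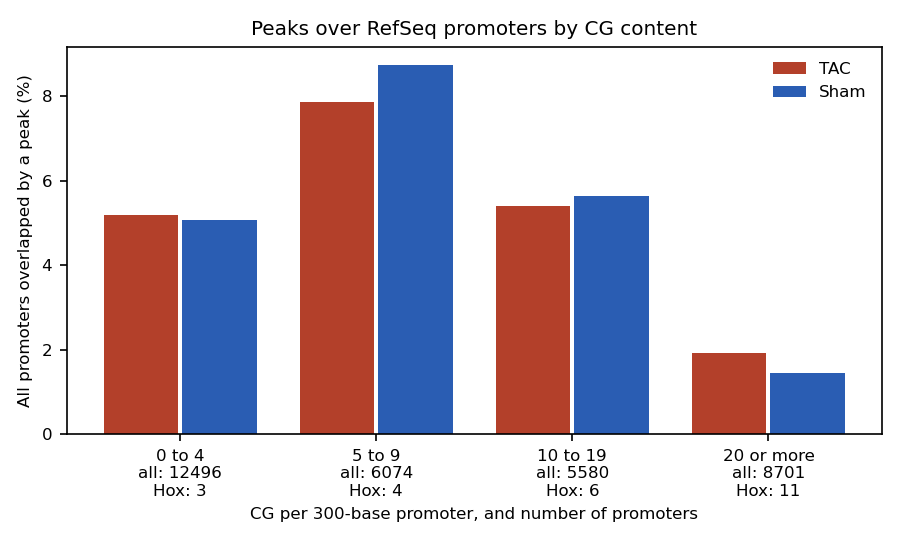
Share of all 32851 RefSeq promoters overlapped by a peak (vertical axis, percent) by the number of CG in the 300 bases (horizontal axis, with the number of all and of Hox promoters per class), for TAC (left bar) and Sham (right bar). The share is lowest in the class of 20 or more CG, at 1.93% in TAC and 1.46% in Sham, where 11 of the 24 Hox promoters lie.

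Hox clusters also carry microRNA genes, and none of the 6 annotated inside the clusters was overlapped by a peak in either library. The share over all 1228 annotated microRNA genes was 4.4% in TAC and 6.19% in Sham, so 0 of 6 is near the background. The miR-10 and miR-196 families are shown with the seed, bases 2 to 8 of the mature 5' arm, in capitals, since their copies in different clusters share it.
miR-10a-5p: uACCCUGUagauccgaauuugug
miR-10b-5p: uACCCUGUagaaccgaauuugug
miR-196a-5p: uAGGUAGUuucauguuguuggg
miR-196b-5p: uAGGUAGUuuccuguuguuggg

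Mir10a (chr11:96317165-96317274) and Mir10b (chr2:74726070-74726137) encode the pair with the seed ACCCUGU. The nearest peak to Mir10a was 24.4 kb away in TAC and 9.46 kb in Sham, and to Mir10b 14.1 kb and 7.45 kb. Mir196a-1 (chr11:96265164-96265265), Mir196a-2 (chr15:102973350-102973434) and Mir196b (chr6:52230081-52230165) encode the seed AGGUAGU, and target Hox mRNAs themselves. A TAC peak ended 0.337 kb from Mir196b, the closest of these, where the nearest Sham peak was 2.32 kb away. For Mir196a-1 the distances were 2.61 kb in TAC and 19.5 kb in Sham, and for Mir196a-2 they were 2.53 kb and 4.72 kb.

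Within the 4 clusters together, 492 kb, there were 26 TAC peaks and 25 Sham peaks. Their flanks, 800 kb, held 59 TAC and 47 Sham peaks. The density was 52.8 peaks per Mb (34.5 to 77.4) in the clusters and 73.8 (56.1 to 95.1) in the flanks in TAC, a ratio of 0.716 (0.433 to 1.15). In Sham it was 50.8 (32.9 to 75) in the clusters and 58.8 (43.2 to 78.1) in the flanks, a ratio of 0.865 (0.510 to 1.43). Both intervals of the ratio hold 1, so with all clusters pooled the lower density in the clusters was within counting error. With flanks of 200 kb the TAC ratio was 0.650 (0.409 to 0.997), an interval just below 1, and the Sham ratio was 0.707 (0.439 to 1.10). All autosomes together had 65.2 TAC and 55.0 Sham peaks per Mb, and 100 kb bins with 5 or more protein-coding genes averaged 74.7 and 70.0. The clusters thus lay below gene-dense bins in point value, but the TAC interval holds 74.7 and the Sham interval holds 70.0. Leaving out HoxA turned the Sham ratio to 1.12 (0.623 to 1.97), above 1.

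**Figure D2:**
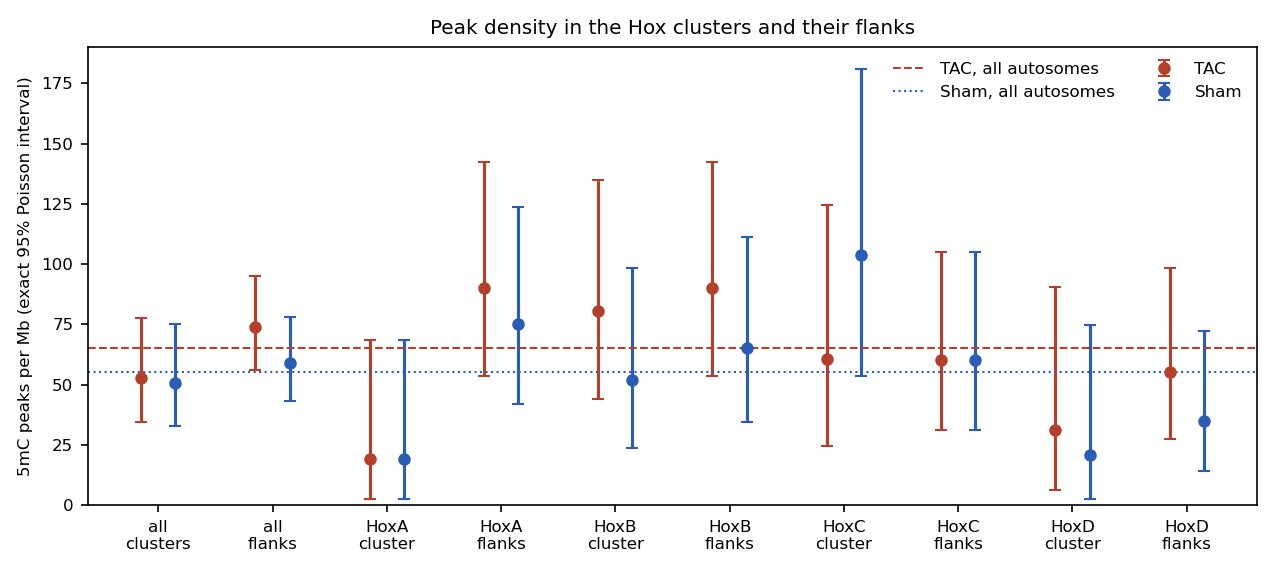
Peaks per Mb (vertical axis) in all clusters, all flanks and each of them, TAC left of Sham, with exact 95% Poisson intervals and the autosomal densities as horizontal lines. HoxA and HoxD lie lowest, at 19 and 31.0 per Mb in TAC and 19 and 20.6 per Mb in Sham, and the intervals are wide.

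Peak numbers varied among the clusters. HoxA, on chromosome 6 with 11 genes, held 2 TAC and 2 Sham peaks in 106 kb, while its flanks held 18 TAC and 15 Sham peaks in 200 kb. Its density was 0.211 times that of its flanks in TAC (0.0237 to 0.880) and 0.253 times in Sham (0.0280 to 1.09), so the TAC interval lay below 1 and the Sham interval held it. HoxD, on chromosome 2 (74668225 to 74765142) with 9 genes, held 3 TAC and 2 Sham peaks, against 11 TAC and 7 Sham peaks in its flanks, with ratios of 0.563 (0.101 to 2.13) and 0.590 (0.0598 to 3.10). HoxB, on chromosome 11 (96194316 to 96368254) with 10 genes, held 14 TAC and 9 Sham peaks. HoxC, on chromosome 15 (102921131 to 103036856) with 9 genes, held 7 TAC and 12 Sham peaks. For HoxB and HoxC the density over flanks was 0.894 (0.412 to 1.90) and 1.01 (0.336 to 2.78) in TAC, and 0.796 (0.300 to 2.01) and 1.73 (0.710 to 4.21) in Sham.

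**Figure D3:**
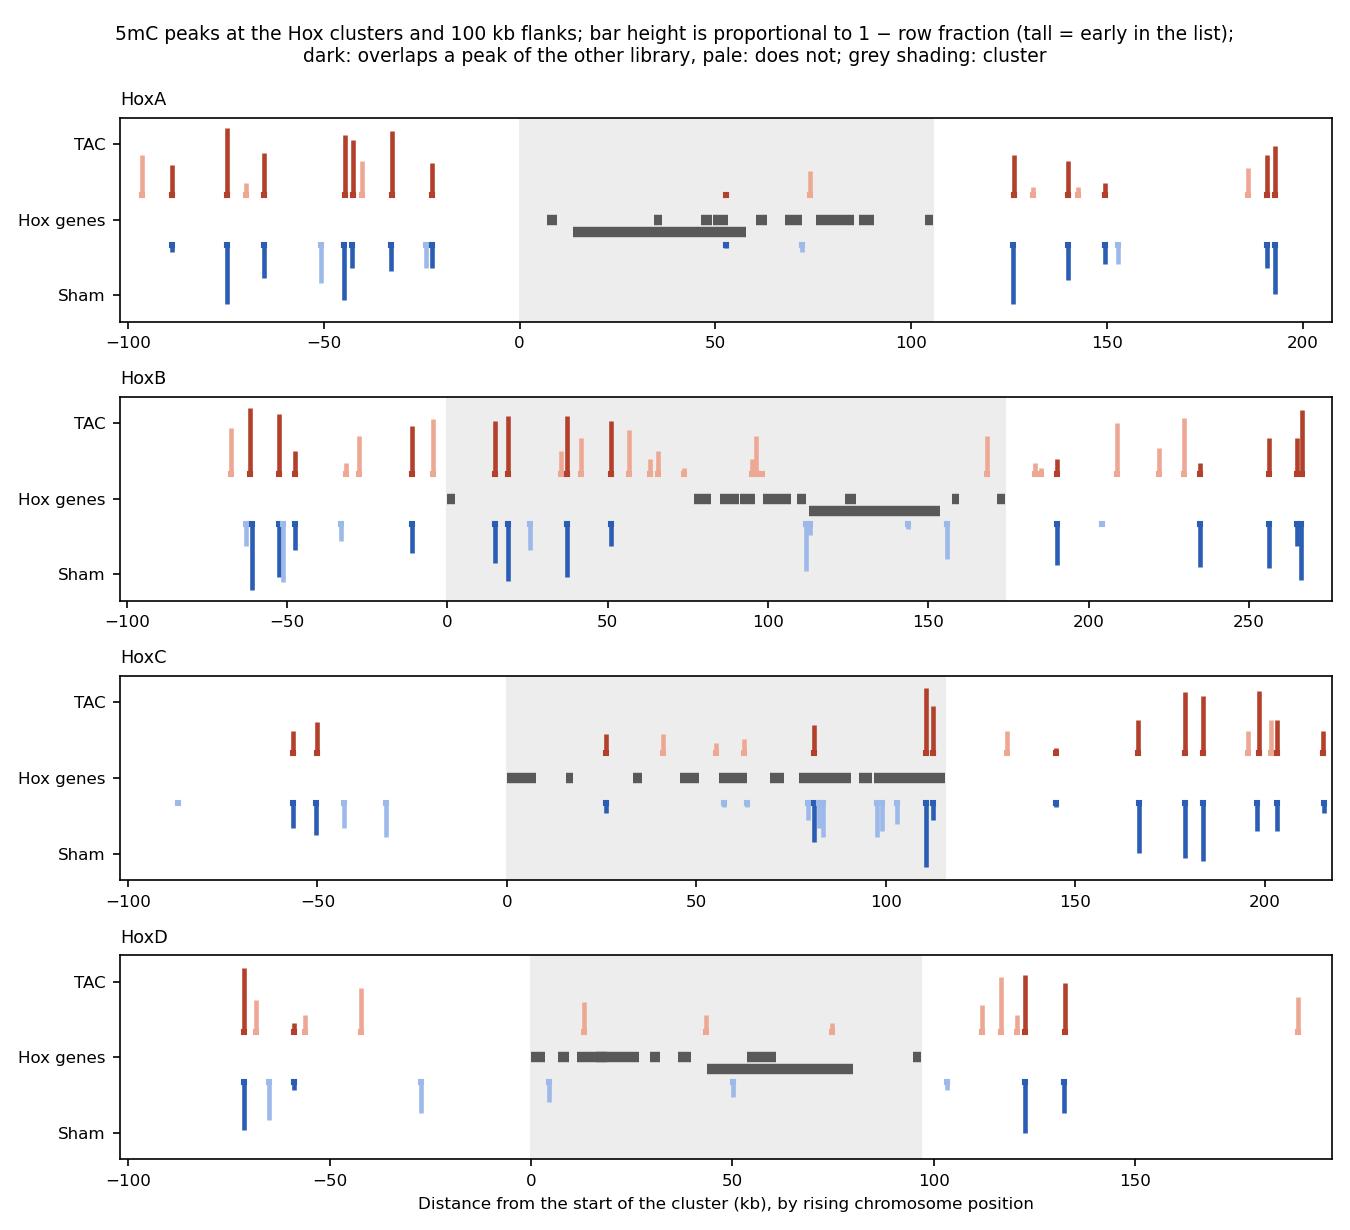
Peaks of TAC (above) and Sham (below) at the 4 clusters (shaded) with 100 kb on either side; the horizontal axis is the distance in kb from the start of the cluster, grey blocks are Hox genes, and bar height is proportional to 1 minus the row fraction. Dark bars overlap a peak of the other library and pale bars do not; HoxA is nearly bare, HoxB peaks gather left of Hoxb9, and pale Sham bars gather over Hoxc6 and Hoxc4.

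Long stretches without a peak crossed each cluster. In HoxA no TAC peak lay between 52133169 and 52207941 (74.8 kb) and no Sham peak between 52133229 and 52207780 (74.6 kb), a stretch that contains Hoxa2, Hoxa4 and Hoxa5. Of all distances between neighbouring autosomal peaks, 1.54% were as long in TAC and 3.73% in Sham, and the medians were 8.30 and 8.03 kb. Each stretch was picked as the longest touching its cluster, and the shares in this paragraph count distances, not bases. Long distances cover a larger part of the sequence than of the count, so these shares do not say how rare such a stretch is. Of the HoxA stretch 22.2 kb in TAC and 22.1 kb in Sham lay below the cluster. In HoxC the stretch over Hoxc13 and Hoxc12 was 75.8 kb in TAC, of which 49.9 kb lay below the cluster, and 57.6 kb in Sham, with 31.8 kb below it. As long were 1.48% of autosomal distances in TAC and 6.02% in Sham. In HoxB the longest bare stretch differed in place. It ran over Hoxb6, Hoxb5, Hoxb3, Hoxb4 and Hoxb2 in TAC (69.5 kb) and over Hoxb9, Hoxb8, Hoxb7 and Hoxb6 in Sham (60.0 kb), lengths reached by 1.92% of distances in TAC and 5.60% in Sham. In HoxD it ran over Hoxd13 and Hoxd12 in TAC (54.9 kb, 42.0 kb of it below the cluster) and over Hoxd4 and Hoxd1 in Sham (52.8 kb, 6.26 kb of it beyond the cluster), reached by 3.64% and 7.03%.

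Most HoxB peaks lay in the interval between Hoxb13, a gene of the prostate and tail end set far from the rest, and Hoxb9. This interval of 74.7 kb held 10 TAC and 5 Sham peaks, or 134 (64.2 to 246) and 66.9 (21.7 to 156) per Mb. The stretch from Hoxb9 to Hoxb1, of 96.9 kb, held 4 peaks in each library, or 41.3 per Mb. The 4 shared HoxB peaks were all in the interval. The widest (96212409 to 96213818, 1410 bp in TAC; 96212381 to 96213842, 1462 bp in Sham) had row fractions of 0.175 in TAC and 0.18 in Sham. When HoxB was taken from Hoxb9, which was chosen after its peaks were seen, the density of all clusters over flanks was 0.523 (0.281 to 0.920) in TAC, an interval below 1, and 0.820 (0.460 to 1.41) in Sham.

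The numbers of TAC and Sham peaks in the clusters were alike, with a ratio of 1.04 (0.577 to 1.88), against 1.26 (0.841 to 1.88) in the flanks and 1.19 (1.18 to 1.19) on all autosomes. These intervals overlap. The TAC library was the deeper one and had the longer list. With the TAC list cut by order to the length of the Sham list, the ratio was 0.84 (0.447 to 1.56) in the clusters and 1.04 (0.684 to 1.59) in the flanks. HoxB and HoxC leaned opposite ways, at 1.56 (0.627 to 4.07) and 0.583 (0.195 to 1.61), and each interval holds 1. With the first 50% of the rows of each list the ratio in the clusters was 1.67 (0.549 to 5.58), from 10 TAC and 6 Sham peaks. All intervals given here for clusters and flanks hold 1, and those of the full lists also hold the autosomal 1.19.

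Inside the clusters, peaks were counted in and between the genes by midpoint. The Sham peak over the Hoxa9 promoter, with its midpoint 0.142 kb from Hoxa9, thus counts as between genes. Gene bodies of Hox genes, 278 kb, held 8 TAC and 16 Sham peaks, and the sequence between them, 214 kb, held 18 TAC and 9 Sham peaks. In TAC the density was 28.7 per Mb in gene bodies and 84.2 between genes, a ratio of 0.341 (0.128 to 0.825). In Sham it was 57.5 and 42.1, a ratio of 1.36 (0.568 to 3.50). The TAC to Sham ratio was 0.5 (0.185 to 1.24) in gene bodies and 2 (0.853 to 5.05) between genes, and both intervals hold 1. Whether the ratio of gene bodies to sequence between them differs between TAC and Sham was not tested. HoxC gene bodies held 4 of these TAC peaks and 11 of these Sham peaks, and without HoxC there were 4 and 5. Without the Hoxb13 to Hoxb9 interval the sequence between genes held 8 TAC and 4 Sham peaks. The ratio of gene bodies to it was then 0.499 (0.163 to 1.53) in TAC and 1.997 (0.644 to 8.21) in Sham, so the TAC interval no longer lay below 1, a setting chosen after the values were seen. Annotated spans of Hoxa3, Hoxb3 and Hoxd3 contain other Hox genes, so a peak in them may lie far from the coding exons.

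Few Hox genes were overlapped by a peak. In TAC 8 of 39 were (20.5%, 9.30 to 36.5) and in Sham 9 of 39 (23.1%, 11.1 to 39.3), against a background of 59% of all protein-coding genes in TAC and 57.2% in Sham. Hox genes are short, with a median length of 3.74 kb. Among the 3553 protein-coding genes from 2559 to 7436 bp, the middle range of Hox gene length, 29.6% were overlapped in TAC and 30.8% in Sham, and both Hox intervals hold these shares. These genes of like length leave out longer Hox genes that were overlapped, namely Hoxa3 (44.0 kb), Hoxd3 (36.3 kb), Hoxc4 (18.8 kb) and Hoxc6 (13.7 kb). Whether Hox genes within the range alone were overlapped less often was not tested. Of 16393 protein-coding genes no longer than the longest Hox gene, 46.8% were overlapped in TAC and 45.5% in Sham, above both Hox intervals. Their median length was 10.5 kb. By paralog number, 3 of 12 genes of groups 1 to 4 were overlapped in TAC and 4 in Sham, 3 of 11 of groups 5 to 8 in each library, and 2 of 16 of groups 9 to 13 in each.

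The 6 genes overlapped in both libraries were Hoxa3, Hoxa6, Hoxc9, Hoxc6, Hoxc4 and Hoxd3. Hoxb7 and Hoxd11 were overlapped in TAC alone, and Hoxa9, Hoxb5 and Hoxb3 in Sham alone. Among the 3553 protein-coding genes of like length, 780 were overlapped in both libraries, 271 in TAC alone and 314 in Sham alone. Whether Hox genes split differently from these was not tested. With the first 50% of rows, Hoxc4 alone remained of the Hox genes in TAC, and Hoxb5, Hoxc6 and Hoxc4 in Sham. The share of other genes at that setting is not given here. In the full lists the other 28 Hox genes had no peak in their annotated span. They include Hoxb1 of the hindbrain and second heart field, Hoxa2 of the second pharyngeal arch, Hoxb4 of blood stem cells, Hoxc8 of the thoracic skeleton, Hoxc13 of hair and nail, and Hoxd13 of the digits.

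The distance to the nearest peak described all 39 genes. Its median was 4.23 kb in TAC and 6.26 kb in Sham, against 2.96 and 3.50 kb among protein-coding genes of like length. Hoxa2 was the farthest, at 29.2 kb in both libraries. There were 8 Hox genes (20.5%) that lay over 10 kb from any peak in both, against 17.2% of genes of like length. In HoxA the distances in the libraries were close, as for Hoxa11, at 12.4 kb in TAC and 14.3 kb in Sham. In HoxB they differed, with Hoxb9 at 2.96 kb in TAC and 25.7 kb in Sham, and Hoxb4 at 25.5 kb in TAC and 10.6 kb in Sham.

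**Figure D4:**
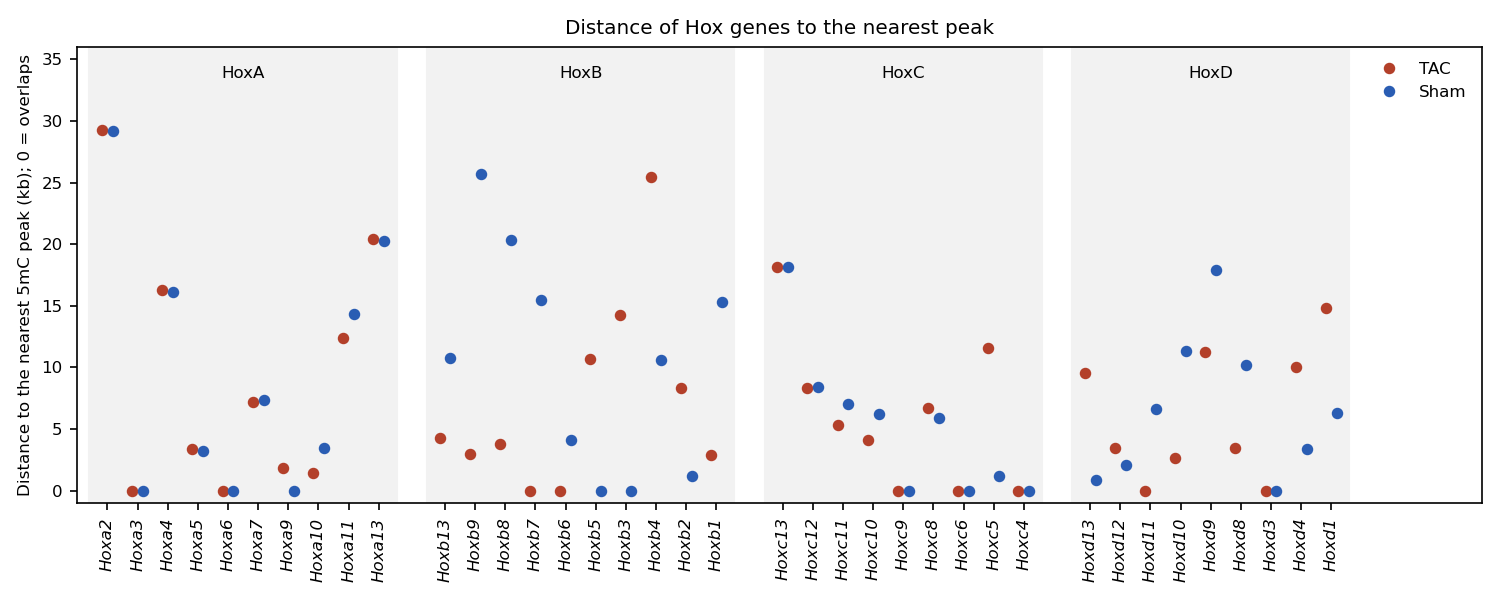
Distance in kb from the Hox genes shown to the nearest peak (vertical axis, 0 where a peak overlaps the gene), by cluster in chromosome order, TAC left of Sham. Points of a gene lie close together in HoxA, where Hoxa2 reaches 29.2 kb in both libraries, and far apart in HoxB, where Hoxb9 lies at 2.96 kb in TAC and 25.7 kb in Sham.

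A gene end was called covered when any peak came within 1000 bp of the first or last base of a gene. This was so for 5 Hox genes in TAC (12.8%, 4.30 to 27.4) and 7 in Sham (17.9%, 7.54 to 33.54), against 24.5% and 23.6% of all protein-coding genes and 27.2% and 26.5% of those of like length. Hoxa6 and Hoxc9 were covered in both libraries, Hoxb6, Hoxb7 and Hoxd3 in TAC alone, and Hoxa9, Hoxb3, Hoxb5, Hoxc4 and Hoxd13 in Sham alone. Each Hox interval holds the shares of its own library. Among the 3553 genes of like length, 665 had a covered end in both libraries, 301 in TAC alone and 276 in Sham alone. Whether the split among Hox genes differs from this was not tested. Transcript starts in the promoter table are a different measure, since they can lie inside the annotated span, as for Hoxc4 and for 1 of the Hoxd11 starts. Of the 22 Hox genes in that table, 4 had a TAC peak within 1000 bp of a transcript start (Hoxa6, Hoxc4, Hoxd11 and Hoxd3) and 3 a Sham peak (Hoxa6, Hoxa9 and Hoxc4), against 14.2% and 12.8% of 17492 protein-coding genes.

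In HoxA the single shared peak lay over the annotated spans of Hoxa6, Hoxa3 and the antisense RNA Hoxaas3. It lay at 52207942 to 52208442 in TAC and 52207781 to 52208281 in Sham, with row fractions of 0.995 and 0.977, close to the end of both lists. The second TAC peak (52229244 to 52229744, row fraction 0.675) lay between Hoxa9 and Hoxa10, and the second Sham peak was the one over the Hoxa9 promoter.

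HoxC held the strongest peak of any cluster and the densest group of unshared Sham peaks. The strongest lay within Hoxc4, a low-numbered gene at the upper end of the cluster, and within the non-coding gene Gm30528 that overlaps it, at 103031353 to 103032184 in TAC (832 bp, row fraction 0.0686) and 103031542 to 103032168 in Sham (627 bp, 0.0839). Another shared peak further along Hoxc4 (103033412 to 103033912 in TAC, 103033351 to 103033851 in Sham) stood at row fraction 0.327 in TAC and 0.775 in Sham. From Hoxc6 to Hoxc4, 38.6 kb, a stretch chosen after its peaks were seen, there were 3 TAC and 9 Sham peaks. The ratio was 0.333 (0.0580 to 1.34), and its interval holds 1. All 3 TAC peaks were shared. The 6 unshared Sham peaks lay in Hoxc6, at 103000457, 103003166 and 103004283, and in Hoxc4, at 103018598, 103019748 and 103023852, with row fractions from 0.516 to 0.775. From Hoxc13 to Hoxc8, 73.1 kb, the numbers were 4 in TAC and 3 in Sham. Hoxc9, of the thoracic skeleton, held 1 TAC peak (102983334 to 102983834) and 2 Sham peaks (102978150 to 102978650 and 102984154 to 102984654), none of them shared.

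HoxD shared none of its 3 TAC peaks (0%, 0 to 70.8) and none of its 2 Sham peaks (0%, 0 to 84.2). At the sharing rate of all peaks of the same decile of the list, 1.06 TAC and 0.956 Sham peaks would have been shared. With so few peaks the intervals cannot decide whether sharing was lower in HoxD. Its TAC peaks lay in Hoxd11 (74681154 to 74681654, row fraction 0.580), a gene of the forearm and kidney, over the Hoxd3 promoter, and in the annotated span of Hoxd3 (74742688 to 74743188, 0.891). Its Sham peaks lay 0.857 kb beyond Hoxd13 (74672460 to 74672960, 0.730) and in the span of Hoxd3 (74718119 to 74718619, 0.796). From Hoxb9 to Hoxb1 the TAC and Sham peaks were also all unshared. Of the TAC peaks 1 lay in Hoxb7, 1 just beyond it, 1 beside Hoxb6 and 1 between Hoxb2 and Hoxb1. Of the Sham peaks 1 lay in Hoxb5, 2 in the span of Hoxb3 and 1 between Hoxb3 and Hoxb2. The Hoxb5 peak (96305660 to 96306418, 759 bp) was the strongest of these in Sham, at row fraction 0.325.

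Peaks in the clusters were shared less often in point value than those in the flanks. In TAC 9 of 26 cluster peaks were shared (34.6%, 17.2 to 55.7) and 34 of 59 flank peaks (57.6%, 44.1 to 70.4), against 55.6% of the whole TAC list. In Sham 9 of 25 cluster peaks were shared (36%, 18 to 57.5) and 34 of 47 flank peaks (72.3%, 57.4 to 84.4), against 66.1% of the whole Sham list. The cluster interval lay below the whole list in Sham and held it in TAC, where its upper bound is 55.7%. Cluster peaks also stood later in the lists, with median row fractions of 0.682 in TAC and 0.702 in Sham, against 0.520 and 0.567 in the flanks, and sharing falls along both lists. The HoxB cluster had medians of 0.484 in TAC and 0.508 in Sham, earlier than those of the pooled flanks. The flanks of HoxB itself had medians of 0.484 and 0.414. Against these the HoxB cluster was level in TAC and later in Sham. At the sharing rate of all peaks of the same decile of the list, 12.4 of the 26 TAC and 14.0 of the 25 Sham cluster peaks would have been shared, and 32.7 and 29.9 in the flanks. As shares these are 47.5% of the TAC and 55.8% of the Sham cluster peaks. Sharing in the clusters was below these in point value in both libraries, but each cluster interval holds its own rate. With so few peaks the intervals cannot decide whether cluster peaks were shared less than peaks at like position. Of the 43 shared pairs in the windows, 28 stood earlier in the TAC list than in the Sham list, and of all 90110 shared TAC peaks 52450 did.

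**Figure D5:**
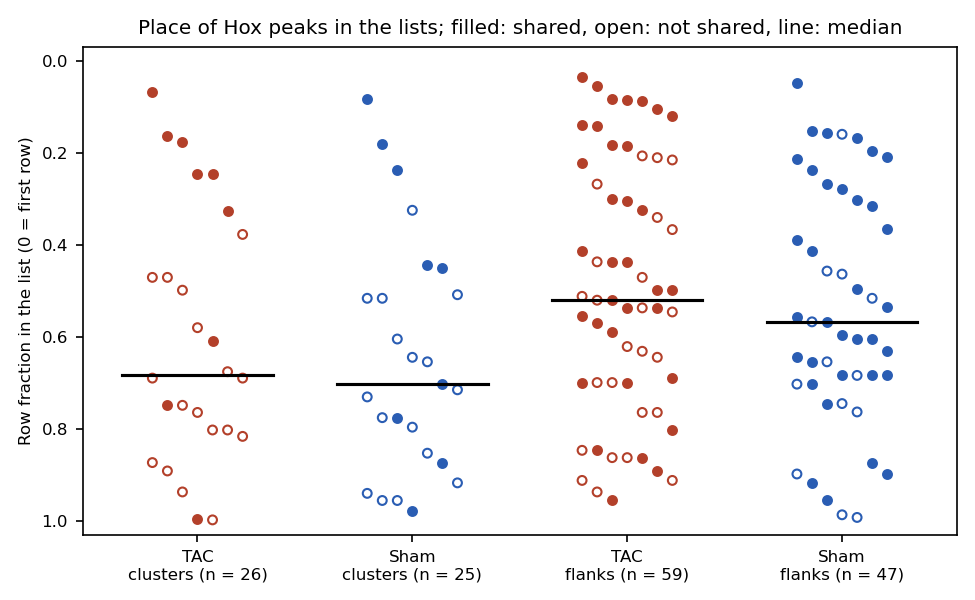
Row fraction of each peak (vertical axis, 0 at the top is the start of the list) in clusters and flanks, TAC left of Sham, with filled points for peaks that overlap one of the other library, open points for those that do not, and a line at the median. Cluster medians are 0.682 in TAC and 0.702 in Sham, and most points below them are open.

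Among non-coding genes inside the clusters, 8 of 24 long non-coding RNA genes were overlapped by a TAC peak and 5 by a Sham peak. The shares over all 12731 such genes of the annotation were 55.1% in TAC and 52.1% in Sham, and over the 5920 in the middle range of length of the 24 they were 38.8% and 37.3%. Hotair, known in human cells for acting on the HOXD cluster, held 1 shared peak (102946969 to 102947469 in TAC, row fraction 0.748, and 102946982 to 102947482 in Sham, 0.873). Hoxaas3 held the shared HoxA peak, and Gm52902 and Hoxb5os held 1 unshared peak in each library. Gm53, Gm51876, Gm38462 and Hoxd3os1 held peaks in TAC alone, 2 in Gm53 and 1 in each of the others. Gm38462 and Hoxd3os1 overlap the same TAC peak, the one over the Hoxd3 promoter. The Sham peaks of Gm52902 and Hoxb5os are those over the Hoxa9 promoter and in Hoxb5. Hoxb3os held 1 peak in Sham alone. Haglr, beside Hoxd1, held none.

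In the flanks the homeobox genes Evx1 and Evx2, which sit beside HoxA and HoxD, held no peak in either library. Ttll6, a tubulin glutamylase gene below HoxB, held 5 TAC and 6 Sham peaks in 41.7 kb, the most of any protein-coding gene with its peaks inside a window. Calcoco2 beside it held none. Mtx2, a mitochondrial import gene beyond HoxD, held 1 TAC and 0 Sham peaks inside the window. Halr1, a non-coding gene in the lower flank of HoxA, held 2 and 3. The strongest peak of the TAC windows lay in the lower flank of HoxA (52080042 to 52081077, 1036 bp, row fraction 0.0344), with a Sham partner at 0.151 (52080024 to 52081039). In Sham the strongest was in Ttll6 (96132422 to 96134271, 1850 bp, 0.0492), with a TAC partner of 917 bp at 0.0555.

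Other homeobox genes, 65 genes such as those of the Dlx, Lhx, Irx and Pax families outside the Hox clusters, served for comparison. Their bodies had 85 TAC and 75 Sham peaks by midpoint, or 81.8 (65.3 to 101) and 72.1 (56.7 to 90.4) per Mb. Hox gene bodies stood at 0.351 (0.147 to 0.724) times this density in TAC and 0.797 (0.433 to 1.38) times in Sham, so the interval lay below 1 in TAC alone, and whether TAC and Sham differ in this was not tested. Of these 65 genes, 39 were overlapped in TAC and 34 in Sham, with a median length of 8.04 kb, against 50.9% and 50% of genes of like length. A gene end was covered in 24 in TAC (36.9%, 25.3 to 49.8) and 20 in Sham (30.8%, 19.9 to 43.4), and both intervals overlap those of the Hox genes.

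Genes of Hox cofactors and of chromatin regulators of the clusters are long, and were overlapped about as often as genes of like length. Of 9 cofactor genes, with a median length of 139 kb, 8 were overlapped in each library, against 93.7% of protein-coding genes of like length in TAC and 89.7% in Sham. They held 81 TAC and 70 Sham peaks in all. Meis1 held 7 and 2, Meis2 15 and 10, and Pknox2 25 and 24, whereas Pbx3 held 6 and 8 and Pbx4 3 and 5. Of the cofactor genes 5 held more peaks in TAC, 2 held more in Sham, 1 held equal numbers, and Pbx2 held none. Polycomb genes, which keep Hox genes silent, held 70 and 81 peaks, with 22 of 30 genes overlapped in each library, against 72.5% and 68.5% of genes of like length. Of these genes 9 held more peaks in TAC, 9 held more in Sham, and 7 held equal numbers. Cbx7 held 3 TAC and 11 Sham peaks and Phc2 9 and 17, whereas Jarid2 held 8 and 5. Without Cbx7 and Phc2, left out after their values were seen, the list held 58 TAC and 53 Sham peaks. Trithorax genes, which keep Hox genes active, held 28 and 30 peaks, and 8 of 11 were overlapped in TAC and 9 in Sham, against 80.3% and 75.5% of genes of like length. Kmt2a, the methyltransferase gene known for sustaining Hox expression, held 4 and 5. The TAC to Sham ratios of these lists were 1.16 (0.830 to 1.62), 0.864 (0.619 to 1.205) and 0.933 (0.537 to 1.62), and each interval holds 1.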

How the data were processed

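Per the labels' protocols, a sequencing service did the immunoprecipitation and library work. The submitters' processing notes name BWA 0.7.4-r385, HOMER 4.5, Picard and the build mm10. HOMER findPeaks was run in its histone style in each library against a shared input, with 4-fold enrichment over input, a peak size of 500 bp and a tag threshold of 12 in TAC and 11 in Sham, per the file headers. In the authors' deposited lists, each row has a score of 1. Other values used are the authors' deposited peak starts and ends, written 1-based.

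Genes, promoters and microRNAs were those of RefSeq for GRCm38, the assembly named mm10. No genome sequence was used, so exons and untranslated regions were not analysed here. For densities, peaks were assigned by midpoint to clusters, flanks, gene bodies, sequence between genes and other stretches. For other counts they were assigned to windows, genes and promoters by 1 bp of overlap. They were called shared at 1 bp. Rates have exact Poisson intervals, shares Clopper-Pearson intervals, and ratios of counts intervals from the binomial share, all at 95%, for counting error only. Peaks are not independent, so these intervals may be too narrow. No p-value is given. The interval code was checked on simulated peaks for the ratio of cluster to flank density alone. The simulated peaks were denser than those here, so the check does not cover the small counts reported. Python 3.11.15 and scipy 1.17.1 were used.

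Members, lists and comparisons were chosen with earlier results of these data known. Named genes were all Hox genes, Evx1 and Evx2, non-coding genes of the clusters and protein-coding genes of the flanks overlapped by a peak, and genes at bare stretches. Values of some single genes are not reported here. Examples from other lists, other non-coding genes, Calcoco2, the split into gene bodies and sequence between them, paralog groups, CG classes and the range of gene length were chosen after the values were seen. The stretches from Hoxc6 to Hoxc4 and from Hoxc13 to Hoxc8 were also chosen after their peaks were seen. Settings varied were the rows kept, the overlap called shared, flank size, segment rule, cluster bounds and gene-end size.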

Additional observations from a re-analysis of the deposited data

How the results depend on the processing

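Of 89 values recomputed under other settings, 77 stayed within the interval of the reported value or within 1.5 times the reported count. With the first 50% of rows, Hox genes overlapped by a peak numbered 1 in TAC and 3 in Sham, those with a covered end 1 and 2, and median row fractions were 0.245 and 0.268, the last by construction. With the first 90%, 5 genes were overlapped in Sham, and a covered end was found in 3 in TAC and 4 in Sham. When the TAC list was cut by order to the length of the Sham list, 5 genes were overlapped and 3 had a covered end in TAC, and with 2000 bp at gene ends 8 did in TAC. These settings keep fewer peaks or widen the search. The TAC density of clusters over flanks stayed below 1 under all 13 settings (0.523 to 0.909) and the Sham density under 12 (0.513 to 0.968), the exception being the set without HoxA (1.12). With flanks of 200 kb the TAC interval fell below 1 (0.409 to 0.997). The TAC to Sham ratio in clusters ran from 0.75 without HoxB to 1.67. HoxB from Hoxb9 was chosen after seeing the data. No paired analysis was possible because each group has 1 library. Peak numbers limit the precision, with 26 TAC and 25 Sham peaks in the clusters.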
